A study of Mus musculus with 8 samples.

Results

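The genes described here encode the enzymes of cholesterol synthesis, the proteins that regulate them and the enzymes that make and modify fatty acids, 29 genes in all. They were taken by gene symbol from a list of the pathway, and all 29 were found among the 22427 genes tested. Their levels were followed across 8 Agilent 1-colour (Cy3) arrays of total RNA from R1 cells, a mouse embryonic stem cell line, that had been differentiated in embryoid bodies, which are floating aggregates of stem cells. The arrays formed 3 groups: 3 arrays of cells given a control siRNA (Control), 3 of cells given siRNA 1 and 2 of cells given siRNA 2, both siRNAs being directed against CnAb1, and all RNA was collected 48 h after transfection. CnAb1 is a splice variant of the catalytic subunit of calcineurin, a phosphatase activated by calcium, which the gene Ppp3cb encodes. No genotype or age other than the cell line was given, all groups were transfected, and a transient siRNA lowers its target without deleting it. Whether the arrays of a group came from separate cultures is not stated in the labels, and the p-values therefore cover no more than the scatter of these arrays, possibly technical. In such bulk RNA, fewer cells of a type and less RNA per cell cannot be told apart.

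Cholesterol is built from acetyl-CoA through mevalonate, the isoprenoid diphosphates, squalene and lanosterol, and fatty acids are built from the same precursor. Both branches are switched on together by the transcription factors SREBP-1 and SREBP-2, the products of Srebf1 and Srebf2. When sterols are scarce, the escort protein Scap carries the SREBPs from the endoplasmic reticulum to the Golgi, where they are cut and released to the nucleus, and when sterols are plentiful the Insig proteins hold Scap back. The SREBPs bind sterol regulatory elements and act with cofactors, among them NF-Y, which binds CCAAT boxes. Growing embryonic stem cells synthesise membrane lipids at a high rate.

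Promoter sequence was available for 23 of the 29 genes in the RefSeq table of assembly GRCm38.p6, as windows of 300 bases that run from 250 bases before the annotated start to 50 after it. Fdps, Fdft1, Sqle, Stard4, Scd1 and Scd2 had no entry. A CCAAT box (CCAAT, either strand) was present in 19 of the 23 genes, or 82.6%, against 41.1% of the 27025 genes in the table. The E-box CACGTG, read by the SREBPs and many other factors, was present in 5 of 23 (Hsd17b7, Sc5d, Dhcr7, Insig1 and Scap), or 21.7%, against 8.09%. The sterol regulatory element TCACNCCAC (either strand) was present only in the window of Hmgcs1, 1 of 23 or 4.35%, against 1.44%. These motifs cannot overlap one another except by sharing end letters, and a match of letters is a description and not a binding site. The 250 bases upstream of 3 genes that were lowest on the same 3 arrays follow, with motif matches in capitals. Hmgcs1 (chr13:119690101-119690350, plus strand) holds the sterol regulatory element 137 bases before the start and CCAAT on the opposite strand, seen as ATTGG, at 237, 176 and 45 bases before it. Insig1 (chr5:28071162-28071411, plus strand) holds the E-box at 101 and an opposite-strand CCAAT at 216 bases before the start. Msmo1 (chr8:64733579-64733828, minus strand) holds CCAAT at 160, 96 and 55 bases before the start.
Hmgcs1: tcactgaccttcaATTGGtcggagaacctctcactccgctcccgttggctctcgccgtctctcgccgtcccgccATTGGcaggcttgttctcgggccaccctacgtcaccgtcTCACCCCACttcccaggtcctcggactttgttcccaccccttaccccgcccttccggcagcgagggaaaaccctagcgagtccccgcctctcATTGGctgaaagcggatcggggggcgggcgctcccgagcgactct
Insig1: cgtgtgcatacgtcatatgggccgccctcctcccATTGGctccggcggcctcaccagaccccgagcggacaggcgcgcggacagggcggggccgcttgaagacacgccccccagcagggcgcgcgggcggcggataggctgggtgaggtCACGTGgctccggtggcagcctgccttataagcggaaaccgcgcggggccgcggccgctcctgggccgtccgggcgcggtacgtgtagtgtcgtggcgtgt
Msmo1: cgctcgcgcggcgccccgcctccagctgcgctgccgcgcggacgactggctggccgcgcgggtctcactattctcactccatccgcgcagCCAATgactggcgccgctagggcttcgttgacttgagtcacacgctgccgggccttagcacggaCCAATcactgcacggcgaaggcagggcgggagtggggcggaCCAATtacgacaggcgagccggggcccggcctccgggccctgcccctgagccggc

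Each array held 44397 spots, of which 68.0% to 75.1% were well above background and 0 were saturated, and the arrays came from 3 slides. Slide 1 carried replicate 1 of every group, slide 2 carried Control replicate 2 and siRNA 1 replicate 3, and slide 3 carried Control replicate 3 and replicate 2 of both siRNAs. Control always sat in position 1 of its slide, siRNA 1 in position 2 and siRNA 2 in position 3, so group and position cannot be told apart. The first principal component, with 42.5% of the variance, set the slide 1 arrays (32.2 to 34.6) apart from the others (-26.3 to -13.3). The probe of Ppp3cb read 0.74, 0.52 and 0.62 on the Control arrays, 0.18, 0.39 and 0.60 with siRNA 1 and 0.41 and 0.62 with siRNA 2 (log2 signal over the array's 75th percentile). Its mean difference was -0.17 ± 0.12 (SE) with an adjusted p of 1.00 in limma, and it is not known to read the CnAb1 variant, so it checks nothing about the knockdown of that variant. Marker signals were summed over the genes of a list, so the brightest probes weigh most, such as that of Dppa5a among the pluripotency markers. The sums therefore serve only to compare arrays within a list. Markers of pluripotent cells such as Pou5f1 were well above background on all arrays, with summed signals of 197 to 222 times the array's 75th percentile in Control, 213 to 253 with siRNA 1 and 229 to 236 with siRNA 2 (8 of 8 markers measured). Markers of primitive and visceral endoderm summed to 4.59 to 9.51, 5.0 to 8.23 and 2.99 to 3.12 in the same order (8 of 8 measured), and Afp was well above background on 0 of the 2 siRNA 2 arrays. Markers of primitive streak and mesoderm summed to 4.35 to 6.29, 2.90 to 4.27 and 2.88 to 2.94 (5 of 7 measured). Markers of fibroblast feeder cells summed to 2.75 to 3.34, 2.70 to 2.97 and 3.13 to 3.34 (6 of 8 measured). Of these, Fap was well above background on the 3 Control arrays and on 0 of the 5 siRNA arrays, so it counted as measured through Control alone.

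Levels are given as log2 processed signal minus the log2 75th percentile of the same array, so that 1 unit is a 2-fold difference and 0 is the 75th percentile of the array. Values are listed by replicate number within a group, differences carry a standard error (SE), and adjusted p-values are from limma after Benjamini-Hochberg adjustment over all genes tested. All 29 genes were well above background on all 8 arrays. Probe brightness differs between probes, so levels are compared only within a gene.

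With both siRNAs averaged, no gene of cholesterol or fatty acid synthesis passed the test, in a comparison in which no gene on the array did. Of the 29 genes, 16 had a positive and 13 a negative mean difference from Control, with a median of 0.017 and a range from -0.18 to 0.18, beside a median of 0.0077 over all genes tested. limma called 0 of 29 at an adjusted p under 0.05, where the background over all genes was 0% (0 of 22427), and 0 of 29 had an unadjusted p under 0.05, against 802 genes overall (3.58%). For every one of the 29, the 95% interval of the difference stayed within a 2-fold change in either direction, as it did for 92.5% of all genes, and for 27 it stayed within 1.5-fold. The extreme bounds were -0.66 for Tm7sf2 and 0.66 for Scd1. Without the arrays of slide 1, 25 of the 29 lay above Control with a median of 0.17 and 0 called, and without Control replicate 2 only 7 did, with a median of -0.066. With slide as a fixed block, 15 of the 29 lay above, with a median of 0.0041. By role, the medians over all 8 arrays were 0.017 over the 18 sterol enzymes, -0.038 over the 5 regulators and carrier, and 0.022 over the 6 fatty acid genes.

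No gene of the list, and no other gene, passed the test under either siRNA alone or between them. Under siRNA 1, 16 of 29 genes lay above and 13 below Control, with a median of 0.0027 (all genes 0.024), 0 called (background 0%) and 0 with an unadjusted p under 0.05, against 788 of all genes. Under siRNA 2, 21 lay above and 8 below, with a median of 0.035 (all genes -0.00025), 0 called (background 0%) and 1 gene, Ebp, with an unadjusted p under 0.05, against 754 of all genes (3.36%). That split depended on the fit: with slide as a fixed block 15 of the 29 lay above Control (median 0.017), with array weights 15 (median 0.0047), and without Control replicate 2 only 9 (median -0.040). Between siRNA 2 and siRNA 1, 16 were higher and 13 lower under siRNA 2, with a median of 0.026 (all genes -0.026), 0 called (background 0%) and 0 with an unadjusted p under 0.05, against 740 of all genes. These comparisons share the Control arrays or an siRNA group with each other. By the brightest probe of each gene, the 95% intervals of all 29 again lay within 2-fold in each of them. The extreme bounds were -0.97 (Tm7sf2) and 0.83 (Insig1) between the siRNAs. Other probes of Acaca gave larger differences, none of them called: 0.19 ± 0.16 and 0.50 ± 0.25 for siRNA 2 minus Control, and 0.28 ± 0.16 and 0.78 ± 0.25 between the siRNAs. The other probe of Acly also gave larger differences that were not called. They were 0.26 ± 0.14 for siRNA 2 minus Control and 0.25 ± 0.14 between the siRNAs. The plot of differences with their intervals shows 29 intervals for siRNA 1 that all cross 0 and 28 of 29 for siRNA 2.

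**Figure D1:**
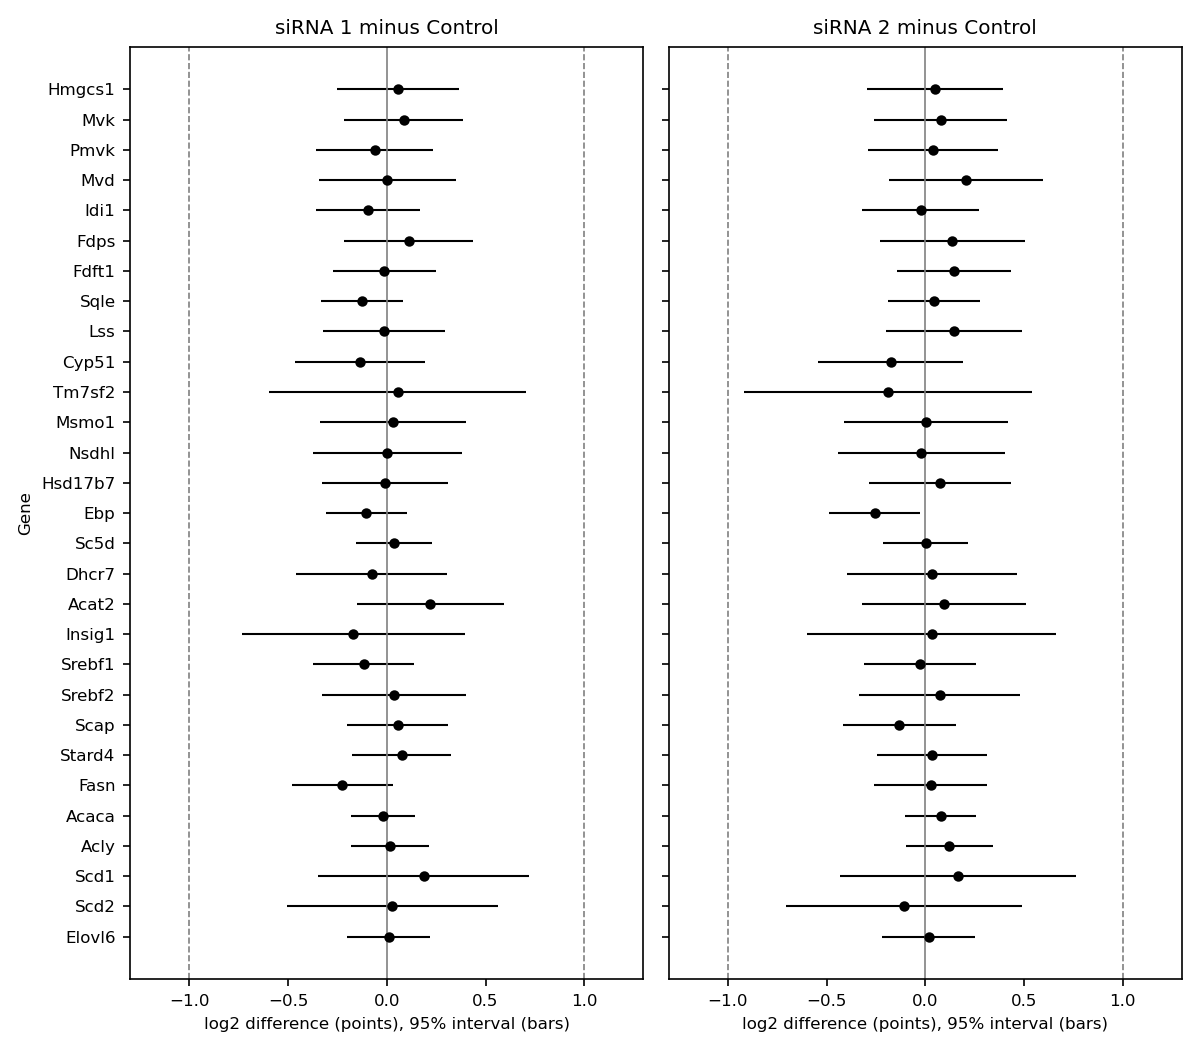
Differences of siRNA 1 (left) and siRNA 2 (right) from Control for the 29 genes, on the log2 scale. Points are the limma estimates, bars the 95% intervals, and dashed lines mark a 2-fold change in either direction. All intervals lie inside the dashed lines, and only that of Ebp under siRNA 2 leaves out 0.

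The early enzymes make mevalonate and turn it into isoprenoid units. Hmgcs1, HMG-CoA synthase, read 4.39, 3.98 and 4.28 on the Control arrays, 4.12, 4.39 and 4.31 with siRNA 1 and 4.22 and 4.31 with siRNA 2. The lowest value was that of Control replicate 2, and the groups overlapped, with a mean difference of 0.052 ± 0.12. Mvd, which decarboxylates mevalonate diphosphate, read 1.56, 1.11 and 1.29 in Control, 1.20, 1.52 and 1.24 with siRNA 1 and 1.44 and 1.62 with siRNA 2. By the brightest probes, it had the highest difference of the list under siRNA 2, 0.21 ± 0.17 (unadjusted p = 0.249, adjusted p = 1.00). Its Control values spanned the siRNA 1 values. Mvk and Pmvk, the kinases of mevalonate and of its phosphate, differed by 0.081 ± 0.11 and by -0.011 ± 0.11, Idi1, the isopentenyl diphosphate isomerase, by -0.059 ± 0.10, and Fdps, which makes farnesyl diphosphate, by 0.12 ± 0.13.

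The middle enzymes commit farnesyl diphosphate to sterols. Fdft1, squalene synthase, read 2.20, 2.11 and 2.23 in Control, 1.98, 2.31 and 2.20 with siRNA 1 and 2.23 and 2.41 with siRNA 2. Its lowest and its highest array were both siRNA arrays, and its mean difference was 0.067 ± 0.099. Sqle, the squalene epoxidase, read 3.82, 3.75 and 3.71 in Control, 3.53, 3.68 and 3.70 with siRNA 1 and 3.73 and 3.89 with siRNA 2. All 3 siRNA 1 arrays lay below the 3 Control arrays for Sqle by a small margin, and the difference of -0.12 ± 0.089 did not pass the test (unadjusted p = 0.202, adjusted p = 1.00). The share of all genes with such a separation was not counted. Cyp51, the lanosterol demethylase, read -0.86, -1.12 and -0.91 in Control, -1.32, -1.10 and -0.87 with siRNA 1 and -1.25 and -1.04 with siRNA 2. It had the lowest mean difference after Ebp, -0.16 ± 0.13 (unadjusted p = 0.257, adjusted p = 1.00), and its groups overlapped. Lss, which closes the rings of lanosterol, differed by 0.066 ± 0.12.

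Among the late enzymes, Ebp, the sterol isomerase, came nearest to a difference. It read 2.86, 2.70 and 2.82 in Control, 2.70, 2.75 and 2.62 with siRNA 1 and 2.61 and 2.46 with siRNA 2. Both siRNA 2 arrays lay below every Control array, and 1 siRNA 1 array lay above the lowest Control array. The share of all genes with both siRNA 2 arrays below Control was not counted. The difference was -0.26 ± 0.098 under siRNA 2 (95% interval -0.49 to -0.027, unadjusted p = 0.0336, adjusted p = 1.00), -0.10 ± 0.087 under siRNA 1, and -0.18 ± 0.079 for the mean of both (unadjusted p = 0.0552, adjusted p = 1.00). Ebp alone of the 29 genes was below the Control array of the same slide on all 5 siRNA arrays, by -0.067 to -0.36, a pattern shown by 3.80% of all genes. Acat2, not a late enzyme but the cytosolic thiolase that supplies acetoacetyl-CoA, showed the opposite. It was above the Control array of its own slide on all 5 siRNA arrays, by 0.14 to 0.33, as were 6.48% of all genes. Acat2 read -2.67, -2.32 and -2.40 in Control, -2.50, -2.08 and -2.15 with siRNA 1 and -2.53 and -2.21 with siRNA 2. Its groups overlapped, its 3 lowest arrays being those of slide 1, and its mean difference was 0.16 ± 0.14 (unadjusted p = 0.304, adjusted p = 1.00). The late enzymes other than Ebp had mean differences between -0.068 (Tm7sf2) and 0.032 (Hsd17b7). Among them were Msmo1 with 0.017 ± 0.14, Nsdhl with -0.0088 ± 0.14, Sc5d with 0.018 ± 0.074 and Dhcr7, the final reductase of the pathway, with -0.021 ± 0.15. Over the list, 0 of 29 genes had all 5 siRNA arrays above all 3 Control arrays and 0 of 29 had them all below, against 2.48% and 0.982% of the 22412 genes with a value on every array.

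None of the regulators passed the test. Srebf1 read -2.80, -2.78 and -2.80 in Control, -3.13, -2.76 and -2.84 with siRNA 1 and -2.80 and -2.84 with siRNA 2. The array siRNA 1 replicate 1 lay below all others, which ran from -2.84 to -2.76. Srebf2 read -0.66, -0.70 and -0.45 in Control, -0.87, -0.34 and -0.49 with siRNA 1 and -0.64 and -0.43 with siRNA 2, again lowest on siRNA 1 replicate 1. Insig1, itself a target of the SREBPs, read -1.73, -2.24 and -1.93 in Control, -2.58, -1.96 and -1.88 with siRNA 1 and -2.19 and -1.68 with siRNA 2. Its mean difference was -0.068 ± 0.22, and its Control arrays alone spanned more than that. Scap and the sterol carrier Stard4 differed by -0.038 ± 0.098 and 0.054 ± 0.096.

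In fatty acid synthesis, Fasn, the fatty acid synthase, had its largest difference between the siRNAs. It read -0.15, -0.30 and -0.083 in Control, -0.39, -0.36 and -0.45 with siRNA 1 and -0.31 and 0.0099 with siRNA 2. The 3 siRNA 1 arrays were lower than every Control array, while siRNA 2 had the highest and a low value. How many of all genes show such a separation of siRNA 1 from Control was not counted. The differences were -0.22 ± 0.11 for siRNA 1 (unadjusted p = 0.0775) and 0.25 ± 0.12 between siRNA 2 and siRNA 1 (unadjusted p = 0.0767), with adjusted p-values of 1.00. Acly, which makes cytosolic acetyl-CoA, read 4.83, 4.90 and 4.71 in Control, 4.89, 4.81 and 4.77 with siRNA 1 and 4.95 and 4.91 with siRNA 2. Both siRNA 2 arrays were slightly above the highest Control array, by less than the spread of Control, and the difference was 0.12 ± 0.093 (unadjusted p = 0.231, adjusted p = 1.00). By the other probe of Acly it was 0.26 ± 0.14, also not called. The share of all genes with both siRNA 2 arrays above Control was not counted. Scd1, a stearoyl-CoA desaturase, read -0.058, -0.87 and -0.19 in Control, -0.43, -0.097 and -0.029 with siRNA 1 and -0.32 and -0.087 with siRNA 2. Its positive mean difference of 0.18 ± 0.20, the highest of the 29, stood beside 1 low Control array, replicate 2. The other members, Acaca (0.030 ± 0.062), Scd2 (-0.041 ± 0.20) and the elongase Elovl6 (0.014 ± 0.080), had mean differences smaller than their SE.

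The list varied from array to array within groups. Over the 29 genes, the median deviation from each gene's own mean was 0.11, -0.14 and 0.052 on the Control arrays, -0.17, 0.085 and 0.058 with siRNA 1 and -0.047 and 0.12 with siRNA 2. Control replicate 2, siRNA 1 replicate 1 and siRNA 2 replicate 1 were the low arrays, with 24, 25 and 24 of 29 genes below their own mean, against 3 to 10 on the other 5 arrays. Control replicate 2 held the lowest value of 12 genes and siRNA 1 replicate 1 that of 10, where those arrays held the lowest value of 15.2% and 17.3% of all genes. Control replicate 1 held the highest value of 9 genes and siRNA 2 replicate 2 that of 8, against 13.2% and 9.52% of all genes. The median deviation of all genes was between -0.047 and 0.035 on the 8 arrays, each of which had been scaled to its own 75th percentile. The range of the 3 Control arrays had a median of 0.29 over the 29 genes (0.32 over all genes), was narrowest for Srebf1 (0.024) and widest for Tm7sf2 (0.87), and exceeded the size of the mean siRNA difference for 27 of 29, as it did for 90.6% of all genes.

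**Figure D2:**
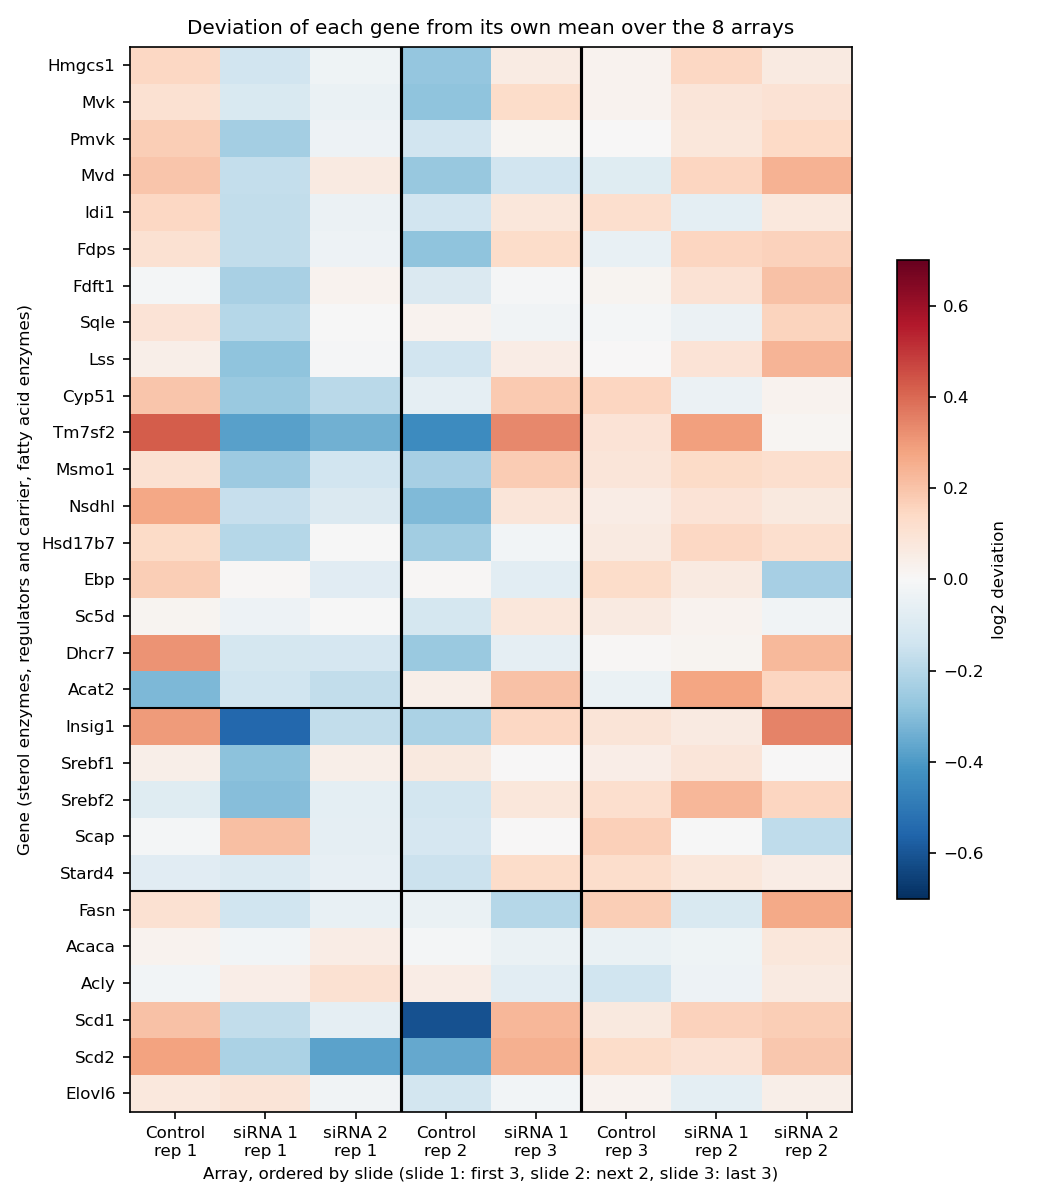
Deviation of each of the 29 genes (rows, grouped by role) from its own mean over the 8 arrays, in log2 units; columns are arrays in order of slide, and thick lines separate slides. Sterol enzymes are blue (low) together on Control replicate 2 and siRNA 1 replicate 1, where 24 and 25 of the 29 genes lay below their mean.

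Set against the Control array of the same slide, most of the list lay below Control on slide 1 and above it on slide 2, with values nearer to Control on slide 3. On slide 1, 4 of 29 genes were above Control with siRNA 1 (13.8%, median -0.30), against 54.1% of all genes, and 7 with siRNA 2 (24.1%, median -0.15), against 52.9%. On slide 2, 23 of 29 were above Control with siRNA 1 (79.3%, median 0.20), against 49.8% of all genes. On slide 3, 18 of 29 were above with siRNA 1 (62.1%, median 0.045), near the 59.1% of all genes (median 0.032), and 21 with siRNA 2 (72.4%, median 0.062), against 48.2%. The siRNA arrays of a slide share its 1 Control array, so their differences are not independent. Of the 29 genes, 11 were below Control on both slide 1 comparisons and above it on all 3 others: Hmgcs1, Mvk, Pmvk, Mvd, Fdps, Lss, Msmo1, Nsdhl, Hsd17b7, Dhcr7 and Scd1, each by its brightest probe. That pattern was shown by 8.91% of 22412 genes, and the reverse by 0 of 29 members and 8.37% of genes.

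The difference between the slides was tested in a comparison added after these values had been seen, namely siRNA minus Control on slide 1 minus siRNA minus Control on the other slides. It was negative for 27 of 29 genes, with a median of -0.39, while 48.0% of all genes were negative with a median of 0.017. The model had terms for siRNA, slide 1 and their product, and pooled slides 2 and 3, with 3 siRNA arrays and 2 Control arrays there. The list's median was -0.21 on slide 1 and 0.16 on the others pooled. With slides 2 and 3 as separate terms the median of the comparison was -0.36, again with 0 of 29 called and 2 positive. All 18 sterol enzymes were negative (median -0.42), as were 4 of the 5 regulators and carrier (median -0.14) and 5 of the 6 fatty acid genes (median -0.10). limma called 0 of the 29 at an adjusted p under 0.05, where 7 of 22412 genes passed, a background of 0.0312%, and the smallest adjusted p in the list was 0.191. An unadjusted p under 0.05 was reached by 9 of 29 (31.0%), against 18.1% of all genes. The direction of the median was kept under every scaling and background correction tried (-0.45 to -0.35), with 2 or 3 of the 29 genes positive. With the mean of all probes of a gene the median was weaker, -0.29. The direction was also kept when any array other than Control replicate 1 was left out, with -0.25 as the value nearest to 0, without siRNA 1 replicate 1. Without Control replicate 1, the only Control array of slide 1, the comparison could not be fitted. Without Control replicate 3, 3 of the 29 passed (Scd1, Scd2 and Tm7sf2), but 451 genes then passed in all.

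Tm7sf2, a sterol reductase, had the widest swing. It read 0.49, -0.38 and 0.16 in Control, -0.32, 0.35 and 0.40 with siRNA 1 and -0.28 and 0.075 with siRNA 2. On slide 1 Control was high and both siRNA arrays low, and on slide 2 Control was low and the siRNA 1 array high. The slide difference was -1.17 ± 0.30 (unadjusted p = 0.00605, adjusted p = 0.191). Insig1 followed with -0.91 ± 0.27 (unadjusted p = 0.0126, adjusted p = 0.198). Scd2, another desaturase, read 4.09, 3.45 and 3.93 in Control, 3.58, 3.91 and 4.06 with siRNA 1 and 3.43 and 4.0 with siRNA 2. Its slide difference was -0.88 ± 0.25 (unadjusted p = 0.0114, adjusted p = 0.197), and that of Scd1 was -0.78 ± 0.31 (adjusted p = 0.264). Msmo1, the methylsterol monooxygenase, read 3.29, 2.96 and 3.27 in Control, 2.93, 3.32 and 3.37 with siRNA 1 and 3.05 and 3.30 with siRNA 2. Its 3 lowest arrays were siRNA 1 replicate 1, Control replicate 2 and siRNA 2 replicate 1, and its slide difference was -0.52 ± 0.19. Of the other sterol enzymes, Pmvk (-0.46 ± 0.17), Fdps (-0.53 ± 0.17), Nsdhl (-0.61 ± 0.20 for the probe used, 0.095 ± 0.21 for its other probe and -0.26 for the mean of both) and Dhcr7 (-0.62 ± 0.21) also had unadjusted p-values under 0.05, and with Msmo1 their adjusted p-values ran from 0.207 to 0.237. Hmgcs1, with -0.43 ± 0.18, had an unadjusted p of 0.0512 and an adjusted p of 0.278. The only positive values of the 29 were those of Scap, at 0.17 ± 0.22, and Acly, at 0.067 ± 0.16. Tm7sf2, Scd2, Msmo1, Mid1ip1, Insig2, Fads1, Acacb, Abca1, Abcg1, Soat1, Zfp42 and Esrrb were chosen for values on single arrays or for this comparison after their values were seen.

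**Figure D3:**
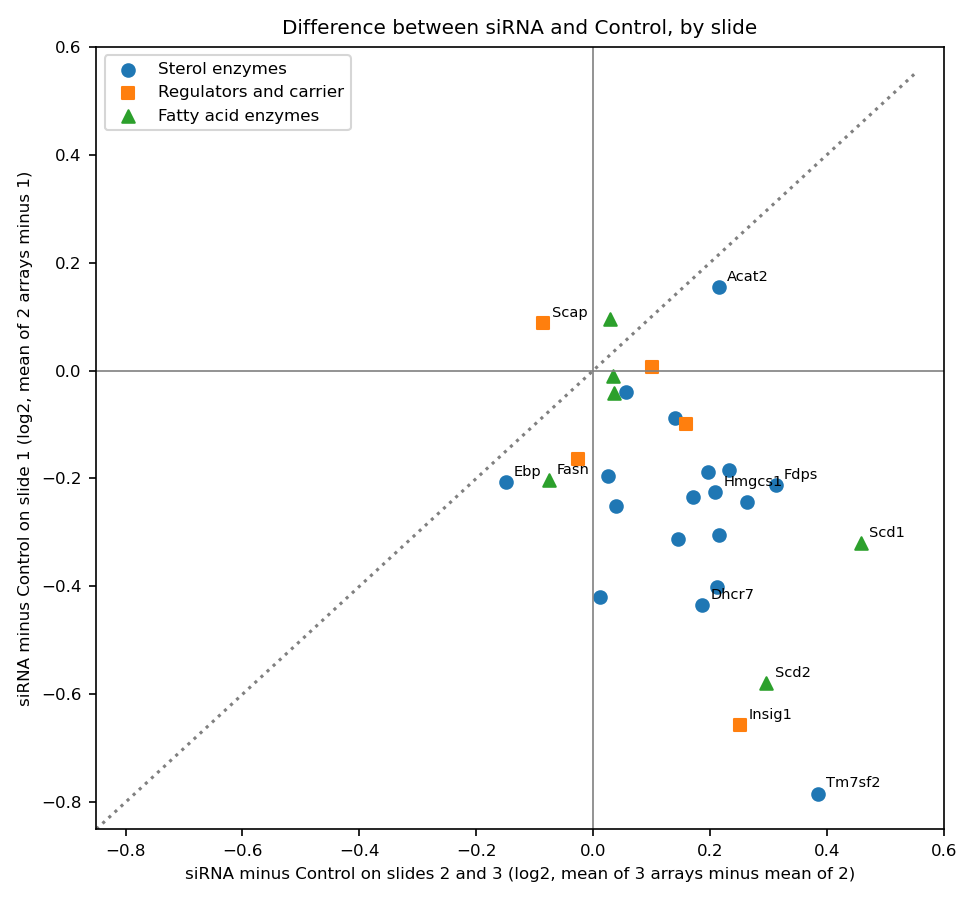
Difference between siRNA and Control arrays on slides 2 and 3 (horizontal) and on slide 1 (vertical) for the 29 genes, in log2 units, with a symbol for each role; the dotted line marks equal differences. Of the 29 points, 27 lie below that line, and Tm7sf2, Insig1, Scd1 and Scd2 lie farthest from it.

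Markers of other cell types are given by slide for comparison. The 5 measured primitive streak and mesoderm markers were all below Control on slide 1 (medians -1.68 with siRNA 1 and -1.70 with siRNA 2), and near it or below on slide 2 (0.042 with siRNA 1) and slide 3 (-0.34 and -1.02). In the added comparison 5 of 5 were negative, with a median of -1.05, 0 called and 1 with an unadjusted p under 0.05. Summed, these markers reached 6.29, 4.35 and 5.62 on the Control arrays, 2.90, 4.27 and 4.24 with siRNA 1 and 2.94 and 2.88 with siRNA 2. The mesoderm sum was lowest on siRNA 1 replicate 1 and on both siRNA 2 arrays. The synthesis genes were low on siRNA 1 replicate 1 and siRNA 2 replicate 1, and high on siRNA 2 replicate 2. On Control replicate 2, where the synthesis genes were also low, the sum of 4.35 was the lowest of the Control arrays. The medians of the other lists in the added comparison were 0.59 for primitive and visceral endoderm, 0.20 for pluripotent cells and 0.22 for fibroblast feeder cells. Afp on the siRNA 2 arrays and Fap on all siRNA arrays entered them with values not well above background. In each of these lists, 0 genes were called, and an unadjusted p under 0.05 was reached by 0 of 8, 2 of 8 and 0 of 6. Those 2 were Zfp42 (1.34 ± 0.50, adjusted p = 0.240) and Esrrb (1.47 ± 0.55, adjusted p = 0.242), both larger in size than the value of any synthesis gene. Zfp42 and Esrrb were highest on siRNA 1 replicate 1, siRNA 2 replicate 1 and Control replicate 2, where the sterol enzymes were lowest. Of the 8 pluripotency markers, 2 had negative values. The part of these cell types in the swing of the synthesis genes was not tested.

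Slide 1 was also compared with the other slides within groups. Of all genes, 6.45% were called (177 higher and 1269 lower on slide 1), and 0 of the 29 were. The 29 had 10 positive and 19 negative differences with a median of -0.039 (all genes -0.029), which turned to 0.016 under median scaling. Acat2 had the largest, -0.34 ± 0.075 (95% interval -0.53 to -0.15, unadjusted p = 0.00469, adjusted p = 0.0640), and was the 1 gene of 29 whose 3 slide 1 arrays lay below all 5 others, against 10.7% of all genes. No member had its 3 slide 1 arrays above all others, against 2.88% of genes. The drop of Acat2 was -0.31 in Control, -0.38 with siRNA 1 and -0.32 with siRNA 2. Srebf2 was next with -0.23 ± 0.10 (unadjusted p = 0.0693, adjusted p = 0.347), and Fdft1 had -0.12 ± 0.089 (unadjusted p = 0.213, adjusted p = 0.627). For 10 genes with several probes, the sign of this slide comparison differed between probes for Acaca (0.019 for the probe used, -0.17 and -0.24 for others) and Acly (0.049 against -0.19). For Acaca, the carboxylase that makes malonyl-CoA, it also differed in the added comparison (-0.043 against 0.37), as it did for Nsdhl (-0.61 against 0.095) and Srebf2 (-0.26 against 0.029).

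**Figure D4:**
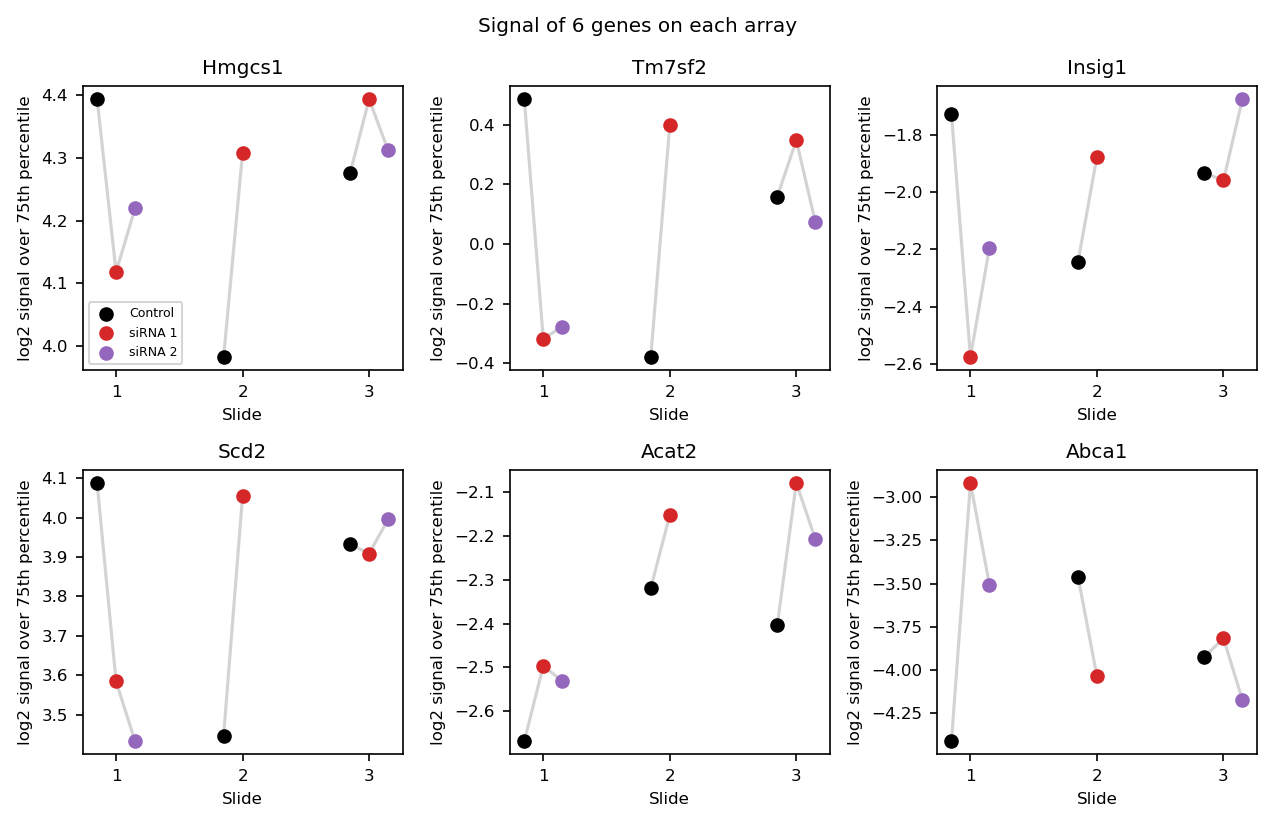
Level of 6 genes on each of the 8 arrays by slide, as log2 signal over the array's 75th percentile, with a separate vertical range in each panel; grey lines join the arrays of a slide. Hmgcs1, Tm7sf2, Insig1 and Scd2 are high in Control on slide 1 and low in Control on slide 2, Abca1 is the reverse, and Acat2 is low on all 3 arrays of slide 1.

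Further genes of lipid metabolism that the SREBPs are known to regulate or that act beside them, 16 in number, showed no common direction. In the mean comparison 7 were higher and 9 lower, with a median of -0.018, 0 called and 0 with an unadjusted p under 0.05. Acacb, the mitochondrial acetyl-CoA carboxylase, read 0.68, 0.63 and 0.54 in Control, 1.15, 0.71 and 0.86 with siRNA 1 and 0.97 and 0.69 with siRNA 2. All 5 siRNA arrays of Acacb lay above all 3 Control arrays, on siRNA 2 replicate 2 by a narrow margin (0.686 against 0.683). The same separation was shown by 2.48% of the 22412 genes with a value on every array. The difference was 0.25 ± 0.12 (unadjusted p = 0.0837, adjusted p = 1.00). Acss2, which makes acetyl-CoA from acetate, differed by 0.21 ± 0.12 (unadjusted p = 0.114, adjusted p = 1.00). In the added comparison 8 of the 16 were negative, with a median of -0.0045, and 3 had an unadjusted p under 0.05 (Mid1ip1, Insig2 and Fads1). Fads1 was lowest on the same 3 arrays as the sterol enzymes, with a slide difference of -0.49 ± 0.20 (adjusted p = 0.266). Mid1ip1, which promotes fatty acid synthesis by activating acetyl-CoA carboxylase, read 3.34, 2.52 and 3.02 in Control, 2.40, 3.05 and 3.27 with siRNA 1 and 2.72 and 3.17 with siRNA 2. It was low on the same 3 arrays as the sterol enzymes, with a slide difference of -1.17 ± 0.29 (adjusted p = 0.191). Insig2, the relative of Insig1 that SREBPs do not induce, had a slide difference of the other sign, 0.46 ± 0.15 (adjusted p = 0.216).

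Genes of sterol efflux and its control by the LXR receptors numbered 6, of which 5 were higher and 1 lower in the mean comparison (median 0.038, 0 called, 0 with an unadjusted p under 0.05). Abca1, the exporter of cellular cholesterol, read -4.41, -3.46 and -3.92 in Control, -2.92, -3.82 and -4.04 with siRNA 1 and -3.51 and -4.17 with siRNA 2. It was highest on the 3 arrays on which the sterol enzymes were lowest, siRNA 1 replicate 1, Control replicate 2 and siRNA 2 replicate 1. Its slide difference was 1.52 ± 0.37 (unadjusted p = 0.00496, adjusted p = 0.187), while its mean siRNA difference was 0.22 ± 0.33. Over the 6 genes the added comparison had no common direction, with 3 negative values, a median of 0.014, 0 called and 3 with an unadjusted p under 0.05. Abcg1, another sterol exporter, had a slide difference of 0.73 ± 0.29 (adjusted p = 0.259), and Soat1, which esterifies cholesterol for storage, one of -0.57 ± 0.21 (adjusted p = 0.239). Mylip, a ligase that degrades lipoprotein receptors, was lower with siRNA 2 than with siRNA 1 by -0.29 ± 0.10 (unadjusted p = 0.0217, adjusted p = 1.00).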

How the data were processed

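Per the file headers, the authors scanned 1 array per deposited file and read out spot intensity values with Agilent Feature Extraction 10.7.3.1, whose processed signal is corrected for background. The authors also deposited log2 values, every probe's median being set to 0, which served only as an alternative. There, the columns for Control replicates 2 and 3 matched the scanner files of one another (r = 0.9998 across probes, against -0.0501 and -0.0484 with their own), with column medians from -0.0388 to 0.0191. RMA is listed, without a role, in the submitters' processing notes, and the array design used build mm9. 0 further columns of per-sample values were left unused.

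Control and outlier spots were left out, spots of a probe averaged, log2 taken and the array's 75th percentile subtracted. Accessions were matched to symbols through a RefSeq table of GRCm38.p6 (26424 of 39429 probes). Genes entered the test if all arrays of 1 or more groups read the probe well above background (27391 probes, 22427 genes, 15571 with a symbol), with the brightest probe standing for the gene. Groups, from the sample titles, were compared with limma 3.58.1 in R 4.3.3 (lmFit and eBayes, two-sided, 5 residual degrees of freedom), with Benjamini-Hochberg adjustment over all genes and a threshold of 0.05. The slide comparison had group and slide as fixed terms, with 3 residual degrees of freedom, and the added comparison had 4. The number of arrays limits the precision. The fits were tested on simulated data. Python 3.11.15 was used for reading and figures.

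The members and lists were chosen with earlier results of these data known. Values on every array are given for Hmgcs1, Insig1, Srebf1, Srebf2, Fasn and Scd1, for members past the threshold, and for the 3 with the smallest p in each comparison. The alternatives covered scaling, background correction, the value table, the filter on dim probes, several probes per gene, the variance model, array weights, the replicate number and the slide as blocks, only the groups compared, leaving out slide 1 or each array, and, for the added comparison, slides 2 and 3 as separate terms.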

Additional observations from a re-analysis of the deposited data

Results flagged for a closer look

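The difference between siRNA and Control arrays had a negative median on slide 1 and a positive one on the other slides. The positive median was 0.20 on slide 2 with siRNA 1, against -0.0015 over all genes. On slide 3 it was smaller, 0.045 with siRNA 1 (all genes 0.032) and 0.062 with siRNA 2 (all genes -0.0076). Over the 29 genes, the median of the difference on slide 1 minus that on the other slides was -0.39, and it was negative for 27 of them. No single gene passed the test, with 0 of 29 called by limma and a smallest adjusted p of 0.191. The comparison was added after the values had been seen, and slide 1 has 1 Control array.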

How the results depend on the processing

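In the 4 siRNA comparisons and the slide comparison, 0 of the 29 genes were called under every alternative tried. Without the arrays of slide 1, the median difference became 0.17 for the mean of the siRNAs and 0.19 for siRNA 2, with 25 of 29 genes above Control in each. When each array was left out in turn, the median ran from -0.066 (without Control replicate 2) to 0.069 for the mean of the siRNAs, from -0.078 to 0.065 for siRNA 1, from -0.040 to 0.13 for siRNA 2, from -0.064 to 0.098 between the siRNAs, and from -0.17 (without Control replicate 1) to 0.060 for slide 1. In the added comparison it ran from -0.45 to -0.25, with 0 to 3 of the 29 called (3 without Control replicate 3, smallest adjusted p 0.0489). The cause was not tested. Of all genes, the added comparison called 0 to 451 against 7, and the slide comparison 766 to 1647 against 1446, both across all alternatives. With the replicate number as a replicate block, the medians were 0.024, 0.0027, 0.066 and 0.065 in the siRNA comparisons, in the order above, with 0 calls. Same-numbered arrays of different groups had correlated deviations from -0.041 to 0.70, so by the scanner file names the numbers were not taken to pair the samples. Arrays of different groups on the same slide had correlations from 0.044 to 0.70, all positive, and those on different slides from -0.70 to 0.36. The 2 siRNA 2 arrays deviate from their mean by equal and opposite amounts. Their correlations with any other array therefore differ only in sign and are not independent. If Control replicates 2 and 3 were exchanged, as in the value table, the numbers would be those of the slides, and which naming holds is not known. The fit with slide as a fixed block, the same as that exchanged block, gave medians of 0.0041, 0.0027, 0.017 and -0.0020, with 0 calls. Among 3683 values of single genes under alternatives, 94 moved by more than the spread between replicates. The number of arrays, 2 or 3 a group, limits the size of difference that can be called. All 29 genes were bright enough that the filter on dim probes removed none.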
